A study of Mus musculus with 5 samples.

Results

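Id2, Nr2f1, Neurod6 and Dlx1 are 4 genes of transcription regulators used to recognise neurons of the developing cortex. They were taken as the probes whose only gene symbol in the platform annotation is one of these 4 names, which gave 4 probes, 1 per gene, of 21446 probes on the array. The genes had been picked because their ratios were the farthest from 0 in lists of projection neuron and interneuron genes, so their own ratios are given below as a description with no test. The samples were 5 dual-dye Agilent arrays. Each carried Cy5-labelled RNA from retina of adult C57/B6 mice and Cy3-labelled RNA from cortex of Swiss-Webster mice at postnatal day 1. One pool of total RNA stood for each tissue, how many animals went into a pool is not known here, and the dyes were never exchanged. Tissue, age, strain and dye therefore cannot be told apart, and the 5 arrays, technical replicates by their labels, show labelling and hybridisation error only. The series set out to learn how far expression values vary within a platform.

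The 4 proteins act in different ways. Id2 has a helix-loop-helix domain without the basic stretch that contacts DNA, so it pairs with E proteins and keeps them from binding the E-box, the DNA element of basic helix-loop-helix (bHLH) factors. Neurod6 (also NEX or Math2) is a bHLH activator of cortical pyramidal neurons, and Nr2f1 (COUP-TFI) is an orphan nuclear receptor that patterns the areas of the cortex. Dlx1 is a homeodomain factor of the ventral forebrain, where most cortical interneurons are born. All 4 are also known from some inner retinal neurons, so retina is not a tissue without them.

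The start regions of the 4 genes are shown because E-boxes, nuclear receptor half-sites and CCAAT boxes are the elements that proteins of this kind, or the general transcription machinery, recognise. Each is 300 bases long, 250 before and 50 after the annotated start, from RefSeq on build GRCm38.p6. Id2 lies at chr12:25096043-25096342 (minus strand), Dlx1 at chr2:71529195-71529494 (plus strand), Nr2f1 at chr13:78198824-78199123 (minus strand) and Neurod6 at chr6:55681214-55681513 (minus strand). Capitals mark CANNTG (the E-box), AGGTCA (the half-site) and CCAAT, each searched on both strands.
Id2: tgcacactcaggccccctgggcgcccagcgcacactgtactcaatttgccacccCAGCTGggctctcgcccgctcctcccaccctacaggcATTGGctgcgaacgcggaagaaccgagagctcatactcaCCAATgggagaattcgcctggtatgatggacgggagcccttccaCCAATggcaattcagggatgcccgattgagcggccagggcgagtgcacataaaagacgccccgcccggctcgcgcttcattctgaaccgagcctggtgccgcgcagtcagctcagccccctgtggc
Dlx1: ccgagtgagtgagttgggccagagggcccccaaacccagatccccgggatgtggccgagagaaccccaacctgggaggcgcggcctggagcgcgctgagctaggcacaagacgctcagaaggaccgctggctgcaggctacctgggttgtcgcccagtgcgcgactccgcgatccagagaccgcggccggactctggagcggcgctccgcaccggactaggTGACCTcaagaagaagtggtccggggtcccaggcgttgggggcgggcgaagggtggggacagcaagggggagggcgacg
Nr2f1: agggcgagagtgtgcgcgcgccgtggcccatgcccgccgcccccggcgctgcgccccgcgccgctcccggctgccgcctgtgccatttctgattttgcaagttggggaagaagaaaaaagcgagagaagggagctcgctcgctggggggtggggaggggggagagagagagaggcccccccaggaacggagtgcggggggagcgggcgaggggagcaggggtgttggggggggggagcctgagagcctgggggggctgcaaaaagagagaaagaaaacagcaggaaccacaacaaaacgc
Neurod6: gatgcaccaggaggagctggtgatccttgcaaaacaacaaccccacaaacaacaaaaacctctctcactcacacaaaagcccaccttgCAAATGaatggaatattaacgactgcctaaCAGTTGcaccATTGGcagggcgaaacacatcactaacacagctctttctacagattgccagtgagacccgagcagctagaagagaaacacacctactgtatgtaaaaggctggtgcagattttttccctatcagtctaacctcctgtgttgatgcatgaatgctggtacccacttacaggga
The Id2 window held 1 CANNTG, in the form CAGCTG, and 3 CCAAT. The Neurod6 window held 2 CANNTG and 1 CCAAT, and the Dlx1 window held 1 AGGTCA, on the opposite strand, and no CANNTG. None of the 3 motifs was found in the Nr2f1 window shown, while a second annotated start of Nr2f1 has a window with 3 CANNTG. Over 32851 such windows of all genes, 72.3% held at least 1 CANNTG, 16.3% at least 1 AGGTCA and 37.4% at least 1 CCAAT, with 3 or more CCAAT in 3.37%. The homeodomain core TAATTA was in none of the windows of these genes and in 5.29% of all windows. The GC share was 63.3% for Id2, 69.3% for Dlx1 and 68.0% for this Nr2f1 window, against 46.3% for Neurod6 and a median of 52.7%. The Neurod6 window held 3 CpG, where the other genes' windows shown held 21 (Id2), 27 (Dlx1) and 23 (Nr2f1) and the median was 7. These are matches of letters and say nothing of binding.

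All 4 genes were lower in the retina pool, at 13.7% to 15.5% of their level in the cortex pool. Ratios are given as log2 of retina over cortex, as mean ± SD over n = 5 arrays, so that -1 is a 2-fold lower level in retina. Neither the log base nor the direction is stated. Both are the likely reading of the values and dyes. Read as retina over cortex, all 3 measured photoreceptor markers were higher in retina, at 2.97 to 4.30. With the sign turned, they would be higher in newborn cortex, and the 4 genes would stand 6.47- to 7.28-fold higher in retina. In these bulk pools, fewer cells of a type and less RNA per cell cannot be told apart.

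Id2, the HLH inhibitor, had deposited log10 ratios of -0.891, -0.858, -0.824, -0.865 and -0.871 on arrays 1 to 5, which are log2 ratios of -2.96, -2.85, -2.74, -2.87 and -2.89. Array 1 was the lowest and array 3 the highest, 0.22 apart. The mean was -2.86 ± 0.08, or 7.28-fold lower in retina, which is place 19 from the lowest among 8798 measured genes. For the interneuron factor Dlx1 the deposited log10 values were -0.862, -0.827, -0.856, -0.843 and -0.858, or -2.86, -2.75, -2.84, -2.80 and -2.85 as log2. Dlx1 varied least, within 0.12, and its mean of -2.82 ± 0.05, or 7.07-fold lower, took place 20, next to Id2.

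The nuclear receptor Nr2f1 read -0.825, -0.836, -0.804, -0.839 and -0.780 as deposited, or -2.74, -2.78, -2.67, -2.79 and -2.59 as log2. Its highest value was on array 5, and its mean was -2.71 ± 0.08, or 6.56-fold lower, at place 26. Neurod6, the bHLH factor of pyramidal neurons, read -0.790, -0.808, -0.792, -0.807 and -0.859, or -2.62, -2.68, -2.63, -2.68 and -2.85 as log2. Array 5 was its lowest, apart from the other 4, where Nr2f1 was at its highest. The Neurod6 mean was -2.69 ± 0.09, or 6.47-fold lower, at place 27.

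**Figure D1:**
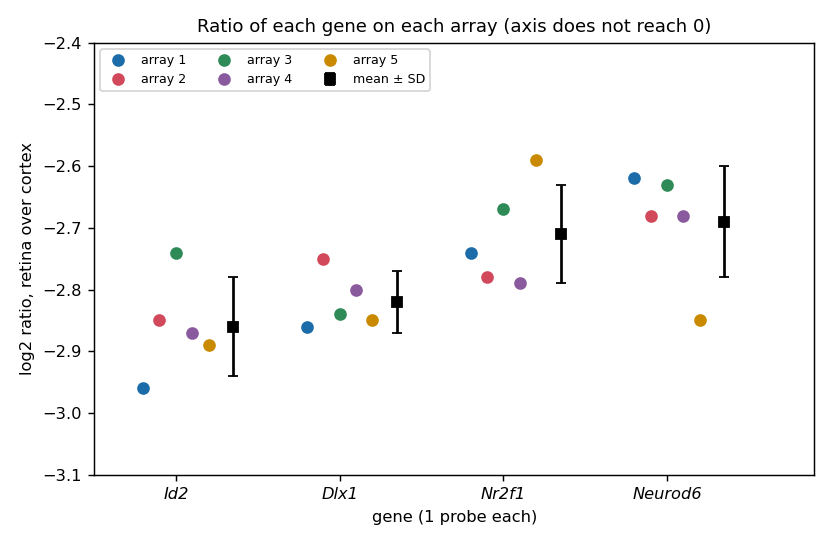
Log2 ratio of retina over cortex for the 4 genes on each of the 5 arrays (coloured points), with mean and SD in black; the axis does not reach 0. The 20 values lie between -2.96 and -2.59, and Neurod6 on array 5 stands below its other 4 values.

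The order of the 4 means is not resolved between neighbours. Dlx1 exceeded Id2 by 0.04 ± 0.08, Nr2f1 exceeded Dlx1 by 0.11 ± 0.12 and Neurod6 exceeded Nr2f1 by 0.02 ± 0.16, each a mean of differences within arrays that is no larger than its SD and has the same sign on 4 of 5 arrays. Across wider steps, Nr2f1 exceeded Id2 by 0.15 ± 0.11 and Neurod6 exceeded Id2 by 0.17 ± 0.11, on 5 of 5 arrays. Neurod6 exceeded Dlx1 by 0.13 ± 0.10, on 4 of 5 arrays. The whole span of the 20 values was 0.37. Just outside the choice of genes, the projection neuron list went on with Bcl11a at -2.44 ± 0.04 and the interneuron list with Dlx6 at -1.32 ± 0.36.

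The repeats of the 4 genes were ordinary for this platform. The SD between arrays of Id2, Nr2f1 and Neurod6 lay at percentiles 46.9, 47.7 and 54.6 of all measured genes, and that of Dlx1 at 17.8. Among the 79 genes with a mean below -2, the same SDs lay at percentiles 60.8, 62.0 and 69.6, and 20.3 for Dlx1. The median SD was 0.085 over all genes and 0.076 over those 79. The mean of the 4 genes ran from -2.80 to -2.72 over the arrays, lowest on arrays 1 and 5 and highest on array 3.

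**Figure D2:**
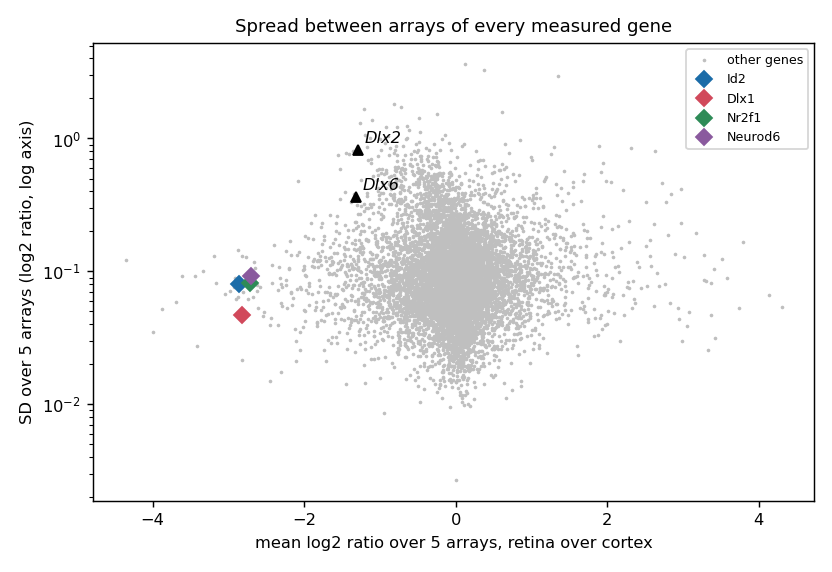
SD over 5 arrays (log axis) against mean log2 ratio of retina over cortex for 8798 genes (grey), with the 4 genes as diamonds and Dlx2 and Dlx6 as triangles. The 4 diamonds sit at a low ratio with SDs of 0.05 to 0.09, while Dlx2 reaches an SD of 0.82.

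Relatives of the 4 genes did not share their ratios. Spot intensities were not used, so how strong the signal behind each ratio was is not known here. In each family the other measured members stood above the chosen gene on every array, which is in part fixed by how the gene was chosen and is given without a test. The words higher and lower are used of other genes only if they passed limma's test against a minimum of 2-fold, with Benjamini-Hochberg adjustment over 8798 genes and a threshold of 0.05. By that rule 3.83% of all genes were lower and 2.80% higher, and the median of all gene means was 0.00.

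Among the Id inhibitors, Id3 read -0.65, -0.56, -0.70, -0.65 and -0.61 on arrays 1 to 5, with a mean of -0.64 ± 0.05 that did not pass. It stood 2.23 ± 0.11 above Id2. Id1 had no value on array 4 and entered no test, and Id4 was not measured. Of the E proteins, the partners that Id2 sequesters, Tcf4 (E2-2) passed as lower, with a mean of -1.18 ± 0.10 and a limma adjusted p of 0.0410. That call was lost without array 1, 2, 3 or 4, or with arrays scaled to equal spread, and the 3 Tcf4 probes read -1.64, -1.50 and -0.40. Tcf3, which encodes E12 and E47, at -0.60 ± 0.16 and Tcf12 (HEB) at 0.26 ± 0.08 did not pass.

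The NeuroD genes covered the widest range. Neurod1, a bHLH factor of photoreceptors and amacrine cells, was higher in retina at 2.42, 2.48, 2.82, 2.98 and 3.20, with a mean of 2.78 ± 0.33 and a limma adjusted p of 9.47e-05. Neurod2, which like Neurod6 marks cortical pyramidal neurons, read between -0.44 and -0.41 on every array, with a mean of -0.42 ± 0.01, and did not pass. Thus Neurod1 stood 5.47 ± 0.41 above Neurod6 and Neurod2 2.27 ± 0.09 above it, although both pyramidal neuron genes were below 0. Of 4 measured neuronal bHLH genes other than Neurod6, Neurod1 alone passed, too few genes to tell that from the 2.80% higher among all genes. Olig1, a bHLH factor of the oligodendrocyte lineage, at -1.01 ± 0.07 and Neurog1, a proneural factor, at 0.21 ± 0.05 did not. None of 7 measured Hes, Hey and Bhlhe40 repressors, which act against bHLH activators, passed limma's test or reached an unadjusted p below 0.05. These are too few genes to tell that from the 3.83% lower and 2.80% higher among all genes. The farthest from 0 of these was Bhlhe40 at 0.41 ± 0.26.

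The closest relative of Nr2f1, Nr2f2 (COUP-TFII), read -0.55, -0.72, -0.47, -0.77 and -0.67, with a mean of -0.64 ± 0.12 that did not pass. It stood 2.08 ± 0.12 above Nr2f1. Its 2 probes read -0.28 and -1.0, both well above the Nr2f1 values. Nr2e1 (Tlx), an orphan receptor of neural progenitors, was at -0.10 ± 0.22. None of 7 measured genes among the NR2 receptors and their possible RXR and RAR partners passed limma's test or an unadjusted p below 0.05, with Nr2f1 left out. Such a list is too short to tell that from the 3.83% lower and 2.80% higher among all genes. The retinoid X receptor Rxra, the farthest from 0, was at 1.05 ± 0.04 with probes at 0.24 and 1.85.

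In the Dlx family the values spread from the Dlx1 level to about 0. Dlx2, the chromosome neighbour of Dlx1, read -0.25, -1.79, -0.59, -2.07 and -1.78, with a mean of -1.30 ± 0.82 that did not pass. Arrays 1 and 3 were high and the other 3 low, and this SD lay at percentile 99.5 of all genes. Dlx6 read -1.14, -1.88, -0.94, -1.45 and -1.17, with a mean of -1.32 ± 0.36 and a limma adjusted p of 0.361. Dlx5, its neighbour in the other pair of brain Dlx genes, was at 0.07 ± 0.09. Dlx3, a gene of skin and placenta, was at 0.19 ± 0.07 with probes at -0.08 and 0.46. Dlx1 lay below the lowest array of every relative. The mean difference within arrays was 1.53 ± 0.85 for Dlx2, 1.5 ± 0.41 for Dlx6, 2.89 ± 0.09 for Dlx5 and 3.01 ± 0.04 for Dlx3. On the array where they came closest, Dlx2 stood 0.73 and Dlx6 0.87 above Dlx1.

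**Figure D3:**
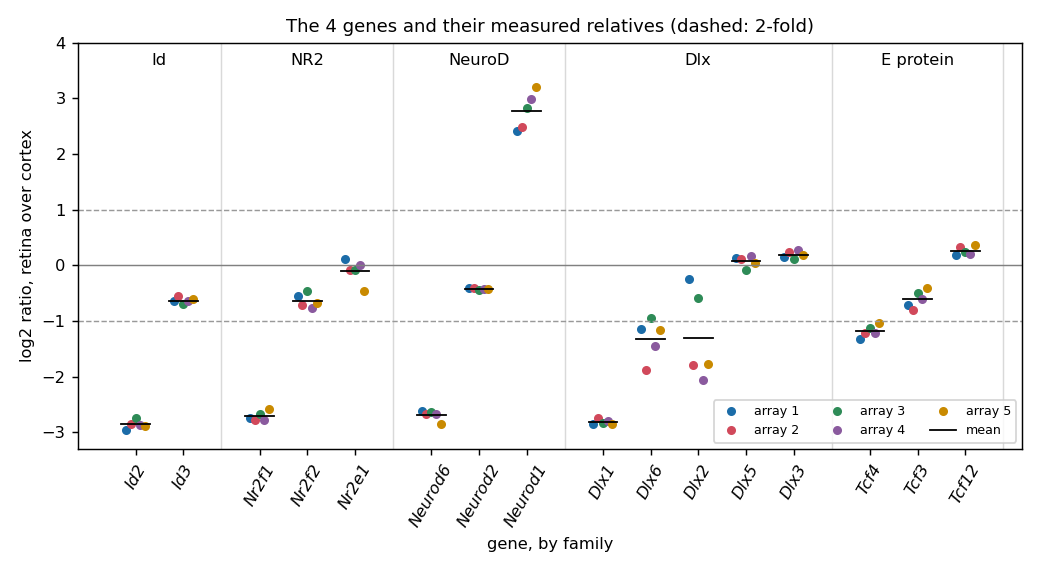
Log2 ratio of retina over cortex on each array (points) with the mean (bar) for the 4 genes, their measured relatives and the E proteins; dashed lines mark 2-fold. Each chosen gene stands at about -2.7 to -2.9, Neurod1 stands at 2.78, and the points of Dlx2 are spread from -2.07 to -0.25.

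Beside the 4 genes, several projection neuron factors were lower in retina, where 3.83% of all genes were. With the chosen genes left out, 20 projection neuron factors were measured. Of these 7, or 35.0%, were lower, 1 was higher and 12 did not pass, with a median of -0.93. The list of 42 genes, the chosen ones included, was drawn up with earlier results of these data known, so this share is a description. Bcl11a, a zinc finger factor of cortical neurons, led at -2.44 ± 0.04. It was followed by the zinc finger gene Hivep2 at -2.01 ± 0.05, the nuclear factor Nfix at -1.98 ± 0.07 and the forkhead factor Foxp2, of deep cortical layers, at -1.76 ± 0.06. The other 3 lower genes, named after their values were seen, were Bcl11b (Ctip2) at -1.47 ± 0.04, with probes at -2.06 and -0.89, Foxp1 at -1.45 ± 0.10 and Nr4a2 (Nurr1) at -1.19 ± 0.06. Rorb, an orphan receptor of cortical layer neurons that the retina also uses, was the 1 higher gene at 1.72 ± 0.11.

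Of 7 measured interneuron lineage factors other than Dlx1, none passed limma's test, too few genes to tell that from the 3.83% lower among all genes, and 1, Dlx6, had an unadjusted p below 0.05. Their median was -0.58, and 6 of 7 means were below 0, where the median of all genes was 0.00. Dlx2, Dlx5 and Dlx6, given above, are among the 7. Among GABA and interneuron products 3 of 15 genes were measured, at 0.19 to 0.99, and none passed or reached an unadjusted p below 0.05. The highest was Gad1, which encodes a GABA-making enzyme that amacrine cells of the retina also use, at 0.99 ± 0.11.

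Factors of retinal neurons lay on the other side. Of 10 measured genes in a list of 34, 6 were higher, where 2.80% of all genes were, and 4 did not pass limma's test. Neurod1, given above, is among the 6. This list too was drawn up with earlier results of these data known, so its count is a description. All 10 means were above 0, and the median was 1.47. The homeobox factors Otx2 (3.42 ± 0.03) and Pax6 (2.99 ± 0.03) and the orphan receptor Esrrb (3.31 ± 0.09) led. A second Esrrb probe lacks a value on array 4. Esrrb stood at 1.78 without that array, at 2.11 with probes kept that had a value on at least 3 arrays and at 1.77 with an exact 0 read as a ratio of 0, and passed in each case. Of 16 measured genes of the BMP pathway, whose Smad proteins induce Id genes, 1 was higher. That is too few genes to tell the count from the 2.80% higher among all genes. The median of the list was -0.17, and no other gene of it reached an unadjusted p below 0.05 in limma's test. The 1 higher gene was Smad9, a BMP-activated Smad, at 3.17 ± 0.19.

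**Figure D4:**
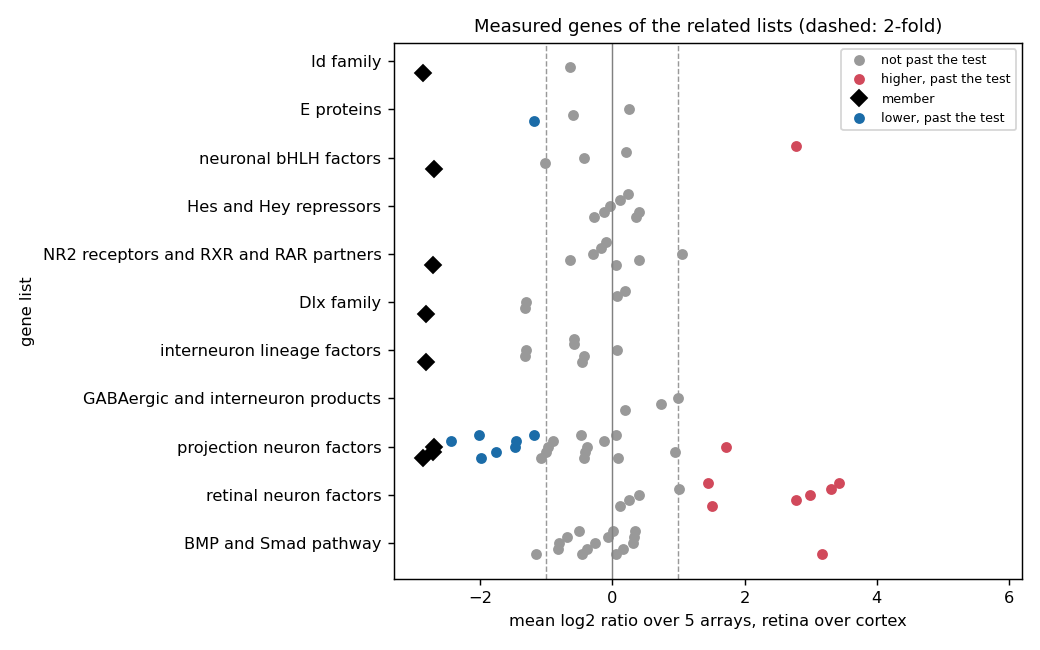
Mean log2 ratio of retina over cortex over 5 arrays for the measured genes of each list (vertical offsets only separate points); black diamonds are the 4 chosen genes, blue and red points passed the 2-fold test as lower or higher. With the diamonds left out, the projection neuron list holds 7 blue points and 1 red among 20. The interneuron lists hold none among 7 and 3, too few genes to tell that from the 3.83% lower among all genes.

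Few genes were as low as these 4. By the root mean square difference of log2 ratio over the 5 arrays, the genes most like Id2 were Sox11, a factor of immature neurons (0.058), Tafa2, a secreted chemokine-like protein (0.0800), and Marcksl1, an actin-binding protein (0.0828). Sox11 is a mean of 3 probes from -4.14 to -1.16. Those most like Dlx1 were Tafa2 (0.033), the fatty acid binding protein Fabp5 (0.0662) and Marcksl1 (0.0808), and Id2 came in place 5 at 0.0867. Nearest to Nr2f1 were the growth factor Ptn, the actin regulator Cracd (both at a distance of 0.10) and the adhesion molecule Clmp at 0.117. Nearest to Neurod6 were Clmp at 0.0826, the adhesion receptor Adgrg1 at 0.101 and the membrane protein Tmem44 at 0.103. This measure mainly picks genes of equal mean ratio.

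The measured coding neighbours on the chromosome stood nearer to 0 than the 4 genes. That is largely fixed by the choice of the 4 genes for their extreme ratios. By gene order in RefSeq, Dlx1 lies on chromosome 2 between Metap1d, at 0.29 ± 0.06, and Dlx2. Kidins220, next to Id2 on chromosome 12, was at -0.61 ± 0.08. Arrdc3, next to Nr2f1 on chromosome 13, was at -0.25 ± 0.09, and Adcyap1r1, next to Neurod6 on chromosome 6, was at 0.15 ± 0.07. None of these 5 neighbours passed limma's 2-fold test, and all had an adjusted p of 1. These are too few genes to tell that from the 3.83% lower and 2.80% higher among all genes. Dlx1 overlaps the antisense gene Dlx1as and Nr2f1 the noncoding gene A830082K12Rik in RefSeq. No probe with a single symbol was annotated to either, and the strand that the probes read was not examined.

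Markers of cell types were read with retina over cortex as the direction. Among all genes 3.83% were lower and 2.80% higher. All 3 measured photoreceptor markers of 14 were higher, at 2.97 to 4.30. The same markers were used above to read the direction, so they are no separate check of the labels. Of 8 telencephalon markers 4 were measured, at -1.47 to 0.05, and Bcl11b was lower. All 4 are also in the projection neuron list. Other cell types moved as well: 3 of 5 measured meninges markers were lower (-1.86 to 0.52), as was the 1 measured red cell marker (-1.66). Of 2 measured glial markers, Gja1 was lower at -1.48, with probes at -2.45 and -0.51, and the other was at 0.71. Of 6 measured vessel markers 2 were higher (-0.47 to 1.44). None of 3 measured microglia markers (-0.52 to -0.07) or 2 oligodendrocyte markers (-1.01 and -0.01) passed limma's test or an unadjusted p below 0.05. These are too few genes to tell that from the shares among all genes. The part of these cell types in the ratios of Id2, Nr2f1, Neurod6 and Dlx1 was not tested.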

How the data were processed

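The deposited table holds 1 value per probe and array, which was read as a log10 ratio of the 2 channels, since the values stop exactly at 2 and -2. The dyes are given per the labels, and retina over cortex is the likely direction, in which all 3 measured photoreceptor markers are higher in retina. For the scanner software, background correction and dye normalization: not given in the sources used here. Column medians were 0 on arrays 1 to 4 and -7.32e-05 on array 5. The deposited log10 ratios were turned into log2 ratios by a factor of 3.32, and an exact 0 (174 to 1068 per array) was read as no value.

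Of 21446 probes, 11813 had 1 gene symbol, and 11782 were named through a RefSeq table (GRCm38.p6). Genes were given the mean of their probes that had a value on every array, in all 8798 genes and 11500 probes. limma 3.58.1 in R 4.3.3 fitted an intercept, and treat tested it two-sided against a minimum of 2-fold, at a Benjamini-Hochberg adjusted p of 0.05. The procedure was tested on simulated data whose unchanged genes had no difference at all and whose noise was independent between genes. Its error rate at the 2-fold limit was not examined. The p-values measure spread between arrays of the same pools, and the precision of that spread is limited by there being 5 arrays. With 1 pool per tissue, they cannot show how far the ratios vary between animals or pools. Spot intensities were not used here.

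The 4 genes and all gene lists were chosen with earlier results of these data known. Named were all probes of the 4 genes, all measured members of the Id, E protein, NR2, Neurod and Dlx families, from each other list up to 4 genes farthest below and 3 farthest above 0 that passed (or the farthest from 0 where none did), the 3 genes nearest to each of the 4 and the next genes in their lists. Alternatives covered centring, scaling, the probe rule, missing values, exact 0, the log base, the minimum fold, the variance prior and each array left out.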

Additional observations from a re-analysis of the deposited data

Results flagged for a closer look

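For Neurod6 array 5 gave -2.85, below the range of -2.68 to -2.62 on the other 4, a gap of 0.740 of its whole range, where 0.71 is the limit for 5 values. Fabp5, among the genes nearest to Dlx1, read -2.93 on array 5 and -2.80 to -2.77 elsewhere. Marcksl1, near Id2 and Dlx1, read -2.99 on array 5 and -2.85 on each of the others. Smad9 read 2.83 on array 5 and 3.20 to 3.33 elsewhere. All 4 had the array 5 value as their lowest, among 37 genes checked, of which chance flags about 5%. The reason was not tested.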

How the results depend on the processing

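With each array left out in turn, the means were -2.89 to -2.84 for Id2, -2.84 to -2.81 for Dlx1, -2.74 to -2.69 for Nr2f1 and -2.71 to -2.65 for Neurod6. Centring, scaling, the probe rule, missing values and exact 0 moved each of these by less than its SD. Read as log2 instead of log10, Id2 stood at -0.86, Dlx1 at -0.85, Nr2f1 at -0.82 and Neurod6 at -0.81, all genes gave 4 lower and 3 higher, and the E protein, neuronal bHLH, projection neuron, retinal neuron and BMP lists gave 0. A minimum of 1.5-fold gave 793 genes lower and 615 higher. It gave 11 lower and 2 higher projection neuron factors, 2 lower BMP genes, 2 higher GABA and interneuron products, 1 lower neuronal bHLH gene, 1 lower gene in each of the Dlx and interneuron lineage lists and 1 higher nuclear receptor, as follows from the lower minimum. The E protein count was 0 with scaled arrays, and 0 to 1 with 1 array left out, since Tcf4 lies at the threshold. The lower probe of Dlx3 turned its sign, to -0.08. The other list counts stayed within 1.5 times. No paired analysis was possible because all 5 arrays form 1 group.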

Other observations

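The high values of Dlx2 on arrays 1 and 3 recur in other genes of large spread. Among 440 genes with an SD above 0.354, arrays 1 and 3 were the highest pair in 257, or 58.4%, against 10.3% among all 8798 genes. Dlx6, whose highest arrays were also 3 and 1, is one of them. Id1, left out for its missing value on array 4, read 1.66 and 1.53 on arrays 1 and 3 and 0.50 and 0.04 on arrays 2 and 5. The pattern was noticed in the data, the genes share arrays, and its origin was not tested.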
